A study of Homo sapiens with 3 samples.

Results

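Cells carrying an aspartate in place of the KAP1 serine under study were set against cells carrying an alanine there, gene by gene, in 1 RNA sequencing library of each. The deposited table has 19076 gene lines. The comparison takes the 11724 genes whose RPKM averaged 1 or more over both libraries, RPKM being reads scaled to gene length and to library depth. From these, 177 short RNAs, mostly small nucleolar RNAs and microRNAs, were set aside, because a few reads over a short length make a large RPKM, and 11547 genes were compared. All cells were MDA-MB-231, an established human line from a triple-negative breast cancer with mesenchymal features, grown in DMEM with fetal bovine serum. In all of them the cell's own KAP1 had been knocked down with a short hairpin RNA, and KAP1 had been put back as the unchanged protein (wt), with alanine (S473A) or with aspartate (S473D). The wt library is given for reference and enters no count. The labels do not say whether a line was a clone or a pool or how many cultures were taken, and with 1 library per group no p-value can be given.

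KAP1, the product of TRIM28, is a corepressor. KRAB zinc finger proteins bind DNA and recruit it, and it in turn brings the histone methyltransferase SETDB1, HP1 proteins and the NuRD complex, which together silence genes and endogenous retroviruses. The serine lies near the HP1-binding motif and is phosphorylated by CHEK2, a kinase of the DNA damage response, and by other kinases that include PRKCD. Alanine cannot be phosphorylated, and aspartate carries a negative charge in place of the phosphate, so the pair stands for the opposite states of the site. How transcript levels differ between those states is what the comparison shows. Matrix metalloproteinases and the plasminogen system, which hold several of the most different genes, cut collagen and other matrix proteins and are much studied in invasive breast cancer cells.

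The read depth was estimated from the size of 1-read steps among low values at 25600000 reads (wt), 29400000 (S473A) and 23900000 reads (S473D), and between 11651 and 11793 genes reached 1 RPKM in each library. Ratios of RPKM are given below with exact 95% intervals that hold for counting error alone and leave out the spread between cultures. Differences are on the log2(RPKM + 1) scale, S473D minus S473A, which understates the change of low genes. The mesenchymal markers VIM (740 RPKM in S473A and 673 in S473D) and CD44 (148 and 119) were abundant, while SPARC was under 1 RPKM in every library. The hormone receptor genes ESR1 and PGR stayed at or below 0.24 and 0.0038 RPKM, and the epithelial genes CDH1 and EPCAM at or below 0.225 and 0.339. All 6 endothelial markers, 6 of 7 fibroblast and muscle markers and all 4 embryonic markers were under 1 RPKM in all libraries. Their summed levels were 1.04, 1.93 and 0.475 RPKM in S473A and 1.09, 1.94 and 0.445 in S473D. Of 4 leukocyte markers 3 were under 1 RPKM, and CD68, which tumour lines also express, stood at 51.6 and 36.7. PTPRC, the pan-leukocyte marker, was listed at 0 in both substitution libraries. The summed level of 10 luminal breast markers was 49.9 RPKM in S473A and 71.8 in S473D, carried by XBP1 (34.9 and 45.0) and KRT19 (9.45 and 21.5).

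The collagenase gene MMP1 and the serpin gene SERPINB2 stood far above S473A in S473D, and the collagen VI gene COL6A1 stood furthest below. As bulk RNA, the values cannot separate fewer expressing cells from less RNA per cell. Of the 11547 genes, 117 (1.01%) were at least 2-fold higher in S473D on the log2(RPKM + 1) scale and 13 (0.113%) at least 2-fold lower, 130 (1.13%) in all. At 1.5-fold the counts were 798 higher (6.91%) and 345 lower (2.99%), 9.9% in all. The whole distribution leaned the other way, with 39.4% of genes above 0 and 60.6% below, a median of -0.10 and an interquartile range of -0.30 to 0.18. Counts above and below 0 in the gene lists that follow are to be read against these shares. The summed RPKM of all genes was 330916 in S473A and 393381 in S473D. Just past the 2-fold line lay CCDC53 and NDUFA1 (both 1.01, adjusted 0.36 and 0.45), with TOMM6 (0.996, adjusted 0.29) and CHCHD2 (0.995, adjusted 0.52) just short of it, and on the lower side MSTO2P and EFNB1 (both -1.003) against CAMK2N2 and GLUL (both -0.96). In these same genes wt minus S473A had a median of 0.00 and an SD of 0.10, with 2 genes 2-fold apart, where S473D minus S473A had an SD of 0.37.

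**Figure D1:**
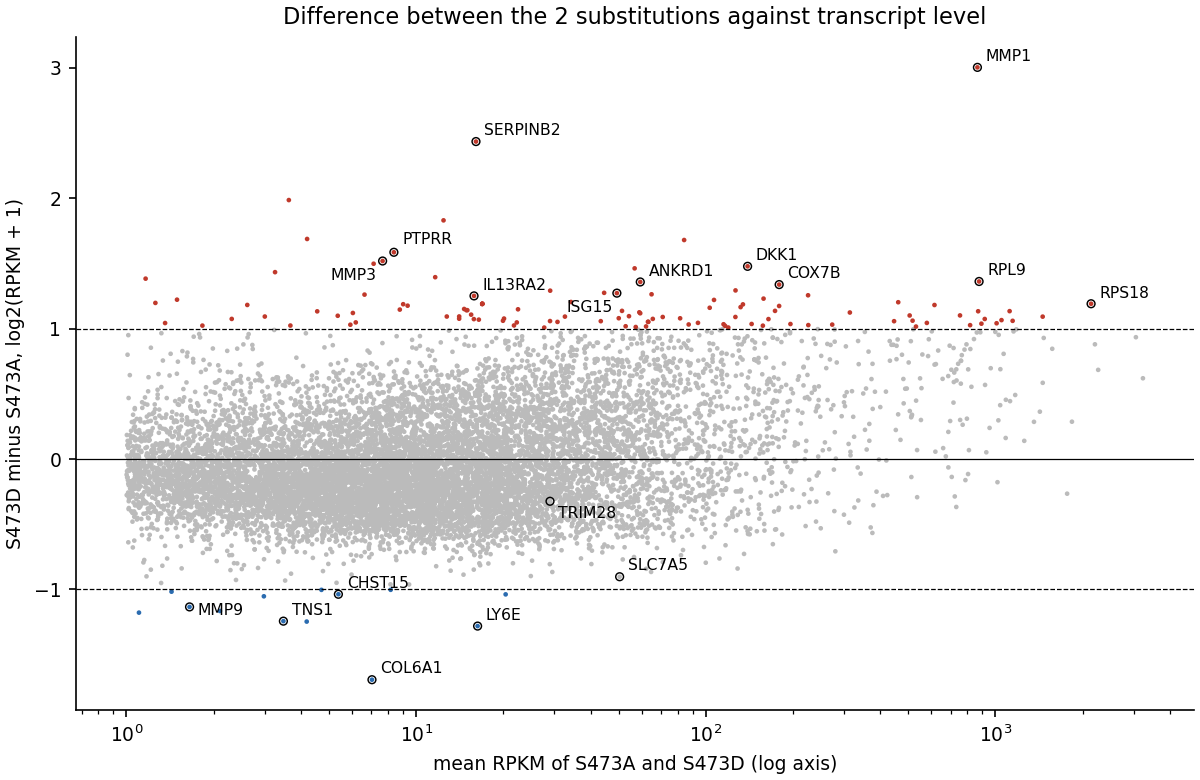
Each point is 1 of 11547 genes, placed by its mean RPKM over S473A and S473D (log axis) and its difference S473D minus S473A on the log2(RPKM + 1) scale. Dashed lines mark 2-fold, red points are the 117 genes higher in S473D and blue points the 13 lower. MMP1 lies highest at 3.0 and COL6A1 lowest at -1.69.

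Short transcripts were on the whole higher in S473D and long ones lower. A GENCODE transcript was matched to 11261 genes (97.5%). In the quintile of genes with the shortest transcripts, 75 to 1826 bases, the median difference was 0.26, and in the quintiles after it -0.00, -0.12, -0.20 and -0.25. The shortest quintile held 86 of the genes 2-fold higher in S473D and the longest held 5. Those 5 include MRPS23, RPS29 and UQCRB, whose matched transcripts (5621, 7062 and 5575 bases) can be longer than the usual ones. Transcripts of the 2-fold higher genes had a median length of 1015 bases against 3213 for all genes, and 91 of 109 were under 2000 bases. Over quintiles of rising GC content the medians were 0.03, -0.03, -0.12, -0.20 and -0.21. Transcripts of the 2-fold lower genes had a median GC content of 58.8% against 48.4% for all. In wt minus S473A the median was within 0.003 of 0 in every length quintile. Spearman's rho of the difference with length was -0.44 across genes, a description that carries no test. When smooth trends on length and GC content were removed, 15 of 109 higher and 8 of 12 lower genes kept a 2-fold difference. The split over 11261 genes turned to 21 higher and 46 lower. Among the 15 were RPL37A, RPS24, RPS29, ATP5E and MRPS23, with matched transcripts of 3647, 2712, 7062, 3665 and 5621 bases. For RPL37A and others the matched transcript is far longer than the usual one, and the adjustment is then too small. The difference with the trends removed, called trend-adjusted or adjusted, is printed beside many list medians and named genes but not beside all. A value printed without it can have moved too, as for RFPL4AL1 (-1.17, adjusted -1.70) and GPR56 (-0.89, adjusted -0.64).

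**Figure D2:**
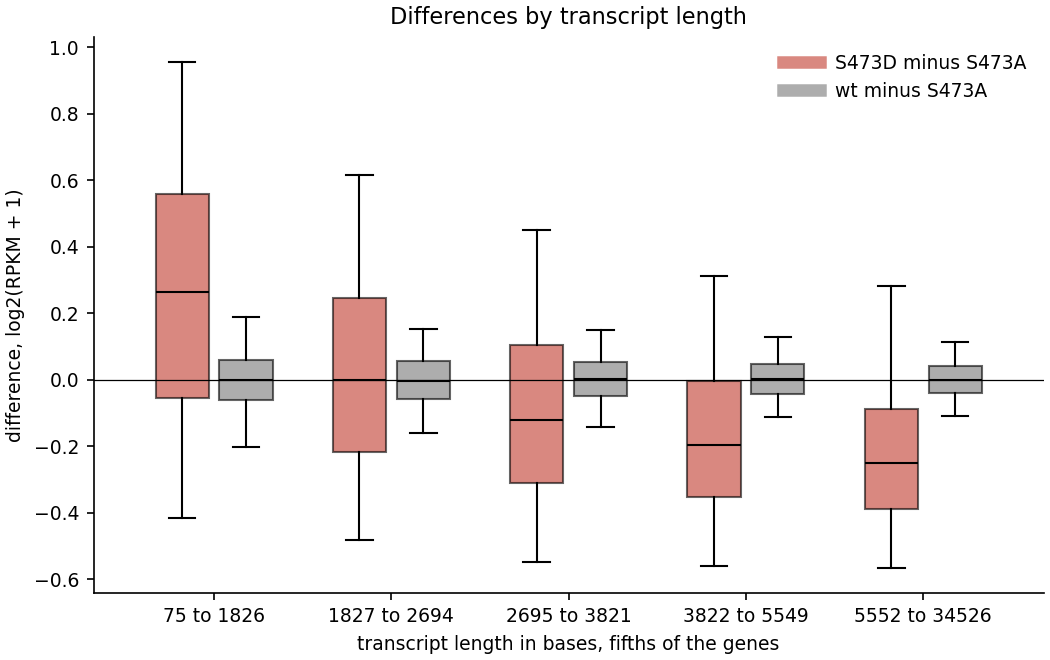
Differences on the log2(RPKM + 1) scale for quintiles of genes by transcript length in bases, S473D minus S473A in red and wt minus S473A in grey. Boxes span the quartiles with the median as a line, and whiskers reach the 5th and 95th percentiles. The red medians step down from 0.26 in the shortest quintile to -0.25 in the longest, while the grey medians stay within 0.003 of 0.

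TRIM28 itself stood at 28.7 RPKM with wt KAP1, 32.3 with S473A and 25.6 with S473D, a difference of -0.32 (trend-adjusted -0.14). The table does not separate the cell's own transcript from the re-expressed one, so this level checks neither the knockdown nor the substitution. Of 33 measured genes of KAP1 and its silencing partners, 5 were above 0 and 28 below, with a median of -0.28 against -0.10 for all genes, and 0 passed 2-fold or 1.5-fold. The median was -0.13 after trend adjustment, against -0.10 for all genes. SETDB1, which methylates histone H3 at lysine 9 for KAP1, stood at 8.68 RPKM with wt KAP1, 9.26 with S473A and 6.18 with S473D (-0.51), and its stabilising partner ATF7IP at 12.1, 12.2 and 8.39 (-0.49). The NuRD genes GATAD2B (-0.54, adjusted -0.32) and MTA1 (-0.49) were in the same range, while the HP1 gamma gene CBX3 (144 RPKM in S473A and 189 in S473D, 0.39, adjusted 0.03) and the histone deacetylase gene HDAC2 (0.27) lay above 0. A list of 18 genes held kinases and phosphatases of KAP1, AMPK subunits and the AMPK activators CAMKK2 and STK11. Of these 18, 7 lay above 0 and 11 below (median -0.20, trend-adjusted -0.20), where 39.4% of all genes lay above 0. CHEK2 was the highest (5.06 and 6.67 RPKM, 0.34, adjusted 0.09), and PRKCD (-0.46) and the AMPK activator CAMKK2 (-0.53, adjusted -0.26) were the lowest. The 353 measured ZNF genes, many of which encode the KRAB proteins that recruit KAP1, had a median of -0.02, with 156 above 0 and 197 below. None of them passed 2-fold, and 17 were 1.5-fold higher and 3 lower.

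The genes that join and divide mitochondria differed by less than 1.5-fold, apart from PHB, FIS1 and MTFP1. MFN1, a GTPase gene of outer membrane fusion, stood at 11.3 RPKM with wt KAP1, 9.97 with S473A and 10.3 with S473D (0.04), and its partner MFN2 at 23.3, 24.2 and 21.1 (-0.19, trend-adjusted 0.03). The MFN2 ratio of S473D over S473A was 0.873 (counting interval 0.827 to 0.922), and that of MFN1 was 1.03 (0.955 to 1.11). OPA1, which fuses inner membranes, stood at 30.3, 29.9 and 28.4 (-0.07). The prohibitin genes PHB (133 RPKM in S473A and 201 in S473D, 0.59) and PHB2 (131 and 195, 0.57), inner membrane scaffolds, were the highest of the fusion list. FAM73A (-0.33) was the lowest. Of 14 fusion genes 8 lay above 0, with a median of 0.04 and 0 past 2-fold. Among fission genes, FIS1, an outer membrane adaptor, stood at 36.7 RPKM with wt KAP1, 36.3 with S473A and 64.9 with S473D, a difference of 0.82 (adjusted 0.30) and a ratio of 1.79 (1.63 to 1.97). Its transcript has 734 bases, and the trend-adjusted difference was 0.30. MTFP1 (25.8 and 40.3 RPKM, 0.62) and the DNM1L receptor MFF (26.1 and 35.9, 0.44, adjusted 0.19) were next, and DNM1L, the fission GTPase, was at 21.3, 22.4 and 20.2 RPKM in wt, S473A and S473D (-0.15). Of 11 fission genes 4 lay above 0, with a median of -0.02 that turned to 0.08 when the libraries were rescaled by trimmed mean.

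MMP1, the interstitial collagenase that cuts fibrillar collagen, had the highest difference of all genes compared. It stood at 279 RPKM with wt KAP1, 191 with S473A and 1541 with S473D, a difference of 3.0 (trend-adjusted 2.69) and a ratio of 8.05 (counting interval 7.90 to 8.22). The S473A value was the lowest of the 3 libraries and the S473D value stood apart from both others. MMP3, the stromelysin that activates pro-MMP1, lies next to it on chromosome 11 and stood at 4.75, 3.48 and 11.8 RPKM (1.52, trend-adjusted 1.25), a ratio of 3.40 (2.89 to 4.01). Of the other genes at this place, chosen after their values were seen, WTAPP1 stood at 0.302 RPKM with wt KAP1, 0.318 with S473A and 1.52 with S473D. WTAPP1 overlaps MMP1, and whether reads were counted by strand is not given in the sources used here, so its reads cannot be told apart from those of MMP1. MMP10, MMP8, MMP12 and MMP13 were each under 0.2 RPKM in all libraries, and YAP1 nearby went lower (52.0 in S473A and 36.7 in S473D, -0.49).

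The gelatinase gene MMP9 went the other way from MMP1. It stood at 2.70 RPKM with wt KAP1, 2.64 with S473A and 0.660 with S473D, a difference of -1.13 (trend-adjusted -1.06) and 4.01-fold higher in S473A (2.78 to 5.83). MMP14, the membrane-anchored activator of pro-MMP2, stood at 148, 151 and 103 RPKM (-0.55, adjusted -0.33). The inhibitors were split too. TIMP1 stood at 64.5 RPKM with wt KAP1, 61.7 with S473A and 94.0 with S473D (0.60, trend-adjusted 0.16), TIMP3 at 5.42, 5.38 and 2.88 (-0.72), and TIMP2 at 90.2, 86.1 and 62.0 (-0.47). Of the sheddase genes ADAM19 (-0.55, adjusted -0.26) and ADAM8 (-0.45, adjusted -0.24) were the lowest, ADAM10 (-0.09) and ADAM17 (-0.22) were near the median of all genes, and ADAMTS1 lay at 0.31 (adjusted 0.49). Of 30 listed proteases and inhibitors 27 were in the table and 19 were measured, and 6 lay above 0 and 13 below. Among them 2 were 2-fold higher and 1 lower, and the median was -0.11, close to that of all genes. MMP10, MMP11, MMP13, MMP16, MMP17, MMP24, MMP25 and TIMP4 averaged under 1 RPKM.

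SERPINB2, whose product PAI-2 inhibits plasminogen activators, stood at 5.79 RPKM with wt KAP1, 4.34 with S473A and 27.8 with S473D. The difference was 2.43 (trend-adjusted 2.11) and the ratio 6.42 (5.65 to 7.35). Its neighbours on chromosome 18, chosen after their values were seen, were SERPINB7 (1.37, 1.02 and 2.38 RPKM, 0.74, adjusted 0.41), HMSD (0.67, adjusted 0.37) and SERPINB8 (0.12, adjusted -0.00). The protease that PAI-2 inhibits, urokinase, was lower in S473D: PLAU stood at 321 RPKM with wt KAP1, 348 with S473A and 212 with S473D (-0.71, trend-adjusted -0.66). Its receptor gene PLAUR (64.6 and 73.6 RPKM, 0.19, adjusted 0.03) and the tissue activator PLAT (68.2 and 78.8, 0.21) differed less. The plasminogen receptor ANXA2 stood at 293, 295 and 452 RPKM (0.61, trend-adjusted 0.32). Of 15 plasminogen system genes 12 lay above 0 and 3 below, 1 was 2-fold higher, and the median was 0.13 (trend-adjusted 0.03). The other members below 0 were S100A10 (-0.15, adjusted -0.45) and SERPINE2 (-0.18, adjusted -0.34).

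**Figure D3:**
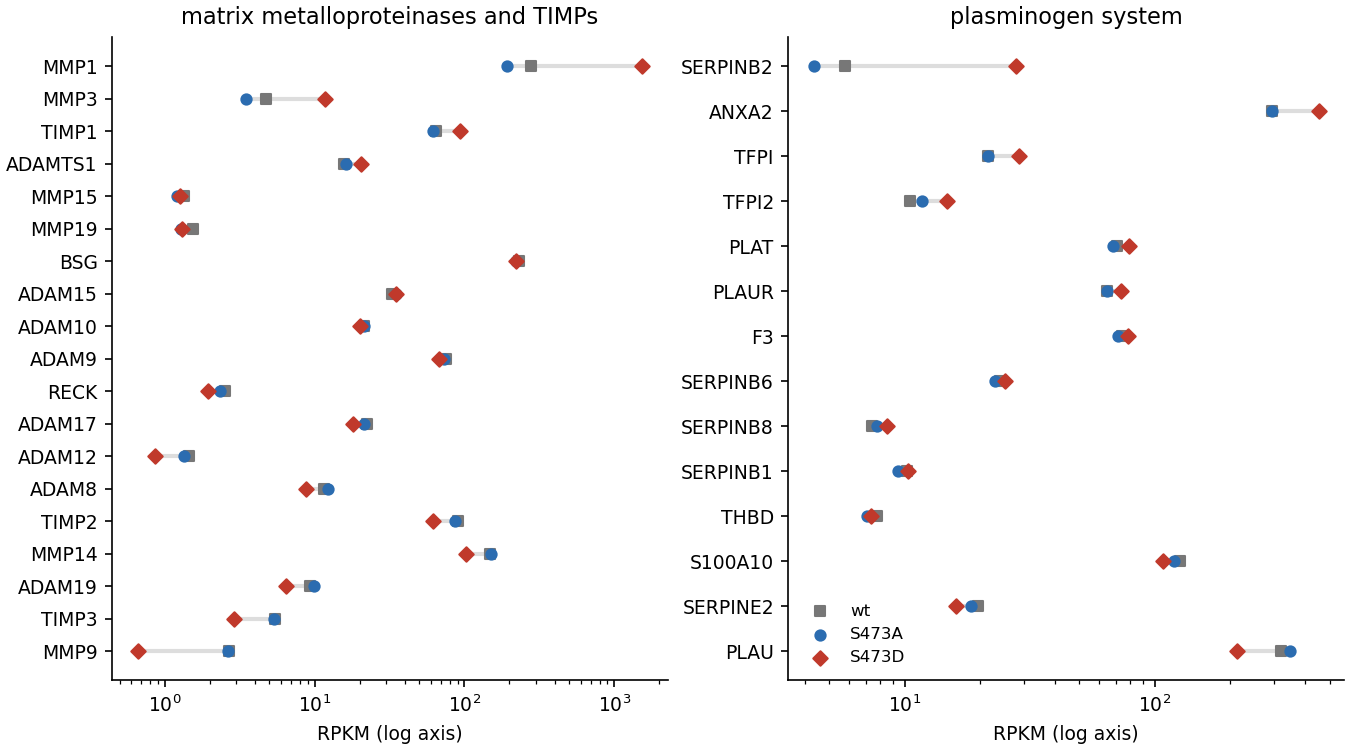
RPKM (log axis) of the 19 measured matrix metalloproteinase, ADAM and TIMP genes (left) and 14 plasminogen system genes (right) in wt (grey squares), S473A (blue circles) and S473D (red diamonds), ordered by S473D minus S473A. MMP1, MMP3 and SERPINB2 at the top have the S473D symbol far to the right, and MMP9, TIMP3 and PLAU at the bottom have it to the left.

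The promoter of SERPINB2 is shown because it is the second most different of the genes named by size and holds letters of the AP-1 motif. The sequence is the 250 bases before the annotated start in RefSeq, build GRCh38.p14, chr18:63887455-63887704 on the plus strand. Capitals mark an AP-1 match (TGANTCA), 102 to 96 bases before the start, and a TATAAA match 30 bases before it.
SERPINB2: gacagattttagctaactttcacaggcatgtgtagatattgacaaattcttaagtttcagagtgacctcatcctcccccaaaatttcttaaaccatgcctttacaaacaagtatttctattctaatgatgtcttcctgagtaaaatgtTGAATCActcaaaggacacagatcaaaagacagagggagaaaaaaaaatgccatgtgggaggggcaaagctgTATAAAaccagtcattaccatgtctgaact
On either strand, TGANTCA was found in 6.6% and TATAAA in 11.1% of the 27305 promoters in the table. A match is letters in a window and no evidence of binding. In the AP-1 and immediate early list itself, 2 of 21 genes lay above 0 and 19 below, with a median of -0.28 (trend-adjusted -0.21) and 0 past 2-fold. The AP-1 subunit genes FOSL2 (40.4 RPKM with wt KAP1, 38.4 with S473A and 20.6 with S473D, -0.87, adjusted -0.57) and JUN (98.2, 100.1 and 65.9, -0.60) were the lowest, followed by CYR61 (-0.53) and JUND (-0.51). JUNB (13.4 and 15.3 RPKM, 0.18) and FOS (0.01) lay above 0.

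PTPRR, a phosphatase gene whose product acts on MAP kinases, stood at 4.39 RPKM with wt KAP1, 3.69 with S473A and 13.1 with S473D. Its difference of 1.59 was 1.52 after trend adjustment, and the ratio was 3.54 (3.15 to 3.99). DKK1, a secreted inhibitor of Wnt signalling, stood at 75.9, 73.2 and 206 RPKM (1.48, trend-adjusted 1.13; ratio 2.81, 2.70 to 2.92). ANKRD1, a muscle ankyrin repeat gene and a common reporter of YAP and TEAD activity, stood at 35.5, 32.9 and 85.9 RPKM (1.36, trend-adjusted 1.05; ratio 2.61, 2.47 to 2.76). IL13RA2, the decoy receptor for interleukin 13, stood at 6.10 RPKM with wt KAP1, 8.97 with S473A and 22.7 with S473D (1.25, trend-adjusted 0.68; ratio 2.53, 2.23 to 2.88). In PTPRR, DKK1 and ANKRD1 the S473D value stood alone above 2 close values, while in IL13RA2 the S473A value was also above wt.

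The promoter of DKK1 is shown because a TEAD core match lies shortly before its start, and DKK1 and ANKRD1 are the genes above 2-fold in the Wnt and YAP lists. It is the 250 bases before the annotated start, RefSeq GRCh38.p14, chr10:52314031-52314280 on the plus strand, with the TEAD core GGAATG (50 bases before the start) and TATAAA (30 bases before) in capitals.
DKK1: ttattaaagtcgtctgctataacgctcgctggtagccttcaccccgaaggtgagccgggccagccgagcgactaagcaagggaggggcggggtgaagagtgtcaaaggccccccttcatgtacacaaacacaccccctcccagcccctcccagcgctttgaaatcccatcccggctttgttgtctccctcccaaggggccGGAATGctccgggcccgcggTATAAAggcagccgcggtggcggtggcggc
GGAATG was found on either strand in 11.9% of promoters in the table. Apart from DKK1, the Wnt list was low: of 23 genes 3 lay above 0 and 20 below, 1 was 2-fold higher, and the median was -0.30 (trend-adjusted -0.16). The co-receptor gene LRP5 was lowest (18.3 RPKM in S473A and 11.4 in S473D, -0.64, adjusted -0.29), and CTNNB1, beta-catenin, lay at 0.19. Of 29 YAP and TEAD targets 4 lay above 0 and 25 below, 1 was 2-fold higher, and the median was -0.30 (trend-adjusted -0.22). ASAP1 (29.2 and 17.3 RPKM, -0.73), CRIM1 (83.8 and 51.8, -0.68) and TEAD4 (-0.56) were the lowest, and CYR61, another common YAP target, stood at 295 and 204 RPKM. ANKRD1 thus differed in the opposite direction from most of its list.

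Several of the 15 most different genes on the high side belong to near-identical families, so reads could have been split between copies. The testis antigen genes SPANXA1 (8.02 RPKM with wt KAP1, 4.90 with S473A and 19.97 with S473D, 1.83, adjusted 1.19), SPANXA2 (34.5, 39.5 and 129, 1.68, adjusted 1.03) and SPANXE (3.35, 3.25 and 11.01, 1.498) are of this kind. The 5 symbols XAGE1A to XAGE1E carry identical values (8.49, 9.92 and 23.9 RPKM) and count 5 times among the 130. The other 6 of the 15 not described above are short transcripts whose difference was smaller after trend adjustment. These are the noncoding LINC00493 (1.46, trend-adjusted 0.59), the ribosomal gene RPL9 (1.36, 0.55), the respiratory chain genes COX7B (1.34, 0.36) and COX7A2 (1.29, 0.61), CKLF, a chemokine-like factor gene (1.29, 0.52), and CCDC167 (1.27, 0.69). The antisense gene PCNA-AS1 (0.869 RPKM in S473A and 6.40 in S473D, 1.99) overlaps PCNA (117 and 224 RPKM, 0.93, adjusted 0.50), and their reads cannot be told apart here.

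**Figure D4:**
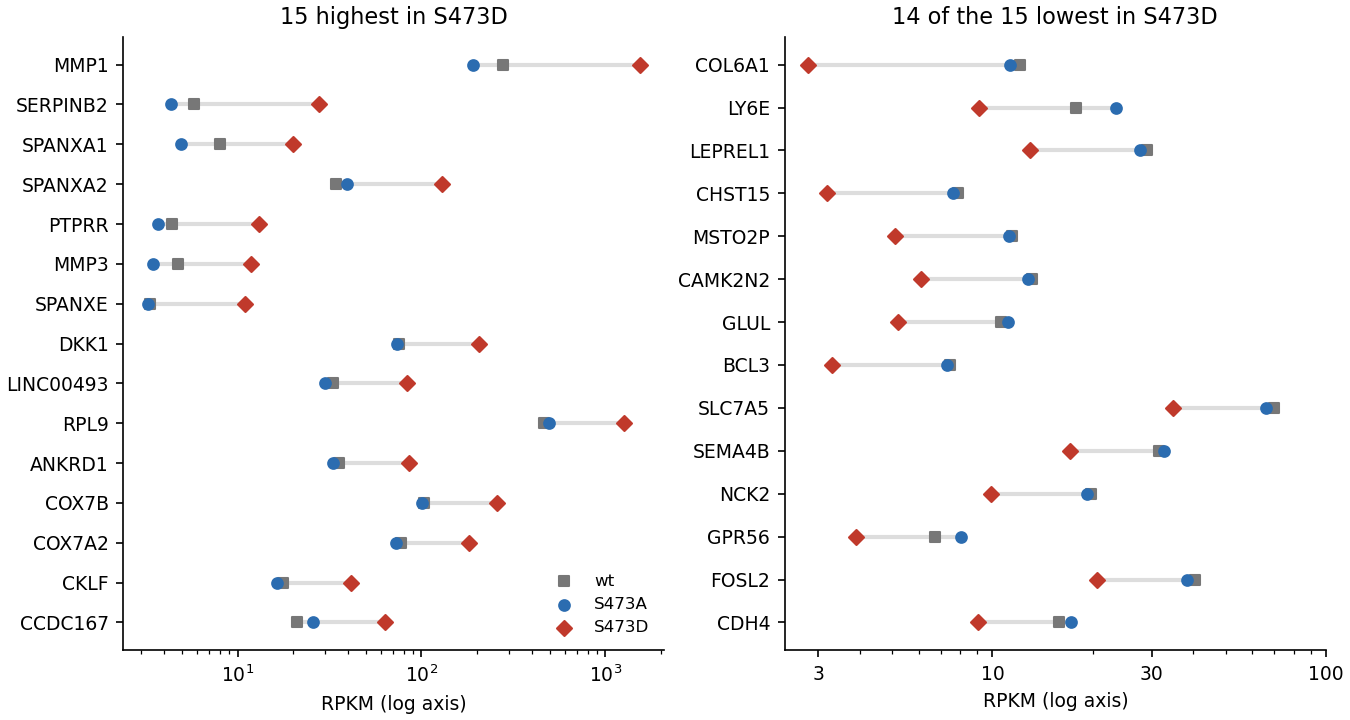
RPKM (log axis) in wt (grey squares), S473A (blue circles) and S473D (red diamonds) for the 15 genes with the highest (left) and 14 of the 15 with the lowest (right) difference S473D minus S473A, taken from genes averaging 5 RPKM or more. In all of them the grey square lies nearer the blue circle than the red diamond.

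COL6A1, a chain of the microfibrillar collagen VI, was the lowest of the named genes. It stood at 12.1 RPKM with wt KAP1, 11.3 with S473A and 2.80 with S473D, a difference of -1.69 (trend-adjusted -1.40), or 4.03-fold higher in S473A (3.54 to 4.59). Its neighbours PCBP3 (1.19 RPKM in S473A and 0.0867 in S473D) and COL6A2 (0.666 and 0.198), chosen after their values were seen, were also lower, at levels under the filter. LY6E, a GPI-anchored surface protein gene induced by interferon, stood at 17.8 RPKM with wt KAP1, 23.5 with S473A and 9.09 with S473D (-1.28, trend-adjusted -1.52; 2.59-fold, 2.25 to 2.99). LEPREL1, a prolyl hydroxylase of collagen, stood at 29.1, 27.7 and 13.0 RPKM (-1.04), and CHST15, which sulphates chondroitin, at 7.88, 7.59 and 3.19 (-1.04). TNS1, tensin 1 of focal adhesions, stood at 4.77, 5.30 and 1.66 RPKM (-1.24, trend-adjusted -0.85). EFNB1, an ephrin ligand gene, stood at 6.19, 6.62 and 2.80 (-1.003). The other genes 2-fold lower, besides MMP9 and MSTO2P, a pseudogene that resembles MSTO1, were HYPK (-1.25), NBL1 (-1.18), RFPL4AL1 (-1.17), FLJ26245 (-1.05) and NPB (-1.02), all with a mean under 5 RPKM.

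Below them came genes just short of 2-fold on the log2(RPKM + 1) scale. As ratios of RPKM, BCL3 (2.21), GLUL (2.13), CAMK2N2 (2.10) and GPR56 (2.07) were more than 2-fold higher in S473A. GLUL, glutamine synthetase, stood at 10.6 RPKM with wt KAP1, 11.1 with S473A and 5.21 with S473D (-0.96), and BCL3, an NF-kB cofactor, at 7.47, 7.31 and 3.31 (-0.95). SLC7A5, the large neutral amino acid transporter LAT1, stood at 70.0, 66.0 and 34.8 RPKM (-0.90, trend-adjusted -0.61), 1.89-fold higher in S473A (1.82 to 1.97). CAMK2N2 (-0.96), the semaphorin SEMA4B (-0.90), the adaptor NCK2 (-0.89), the adhesion receptor GPR56 (-0.89) and the cadherin CDH4 (-0.86, adjusted -0.51) followed. SLC7A5 is the most abundant of the genes in this paragraph, and its promoter is shown for its GC boxes. It covers 250 bases before the annotated start, RefSeq GRCh38.p14, chr16:87869508-87869757 on the minus strand, with 4 GC boxes (GGGCGG) in capitals.
SLC7A5: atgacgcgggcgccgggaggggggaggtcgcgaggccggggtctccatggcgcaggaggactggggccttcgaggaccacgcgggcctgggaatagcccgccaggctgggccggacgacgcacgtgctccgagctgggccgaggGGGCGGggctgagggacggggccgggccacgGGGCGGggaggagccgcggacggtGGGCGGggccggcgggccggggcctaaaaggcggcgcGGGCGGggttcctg
A GC box was found in 42.3% of promoters in the table, among them that of DKK1, where it begins 166 bases before the start and was left in lower case. Neither TATAAA nor TGANTCA was found in this window, which says only that these letters are not in it.

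Matrix and adhesion genes were mostly lower in S473D, and the difference shrank when length and GC content were allowed for. Of 34 collagen, laminin and other matrix genes 6 lay above 0 and 28 below, 2 were 2-fold lower, and the median was -0.32. After trend adjustment it was -0.04, above the -0.10 of all genes. Besides COL6A1 and LEPREL1, the lowest were the proteoglycan agrin, AGRN (27.6 RPKM in S473A and 17.2 in S473D, -0.66, adjusted -0.17), and the collagen crosslinker LOXL2 (92.9 and 62.3, -0.57, adjusted -0.38). Thrombospondin, THBS1 (45.4 and 55.9 RPKM, 0.29, adjusted 0.46), lysyl oxidase, LOX (11.1 and 13.7, 0.28), and COL8A1 (0.26) were the highest. Fibronectin, FN1, stood at 11.7 RPKM with wt KAP1, 6.67 with S473A and 7.43 with S473D (0.14, adjusted 0.42), so both substitutions lay below wt. Of 23 integrin and focal adhesion genes 2 lay above 0 and 21 below, with 1 2-fold lower and a median of -0.33 (trend-adjusted -0.17). ITGB1, the common beta chain, stood at 397 RPKM in S473A and 395 in S473D, while the actin linkers ACTN4 (126 and 83.1, -0.60, adjusted -0.29) and TLN1 (42.9 and 28.7, -0.56, adjusted -0.18) were lower and CAV1 (99.9 and 114, 0.19) higher. Of 22 ephrin, semaphorin and receptor genes 21 lay below 0 (median -0.35, trend-adjusted -0.17), the exception being EFNA1 (0.58).

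The transcriptional feedback genes of MAP kinase signalling, which ERK activity induces, were split. Of 17 genes 5 lay above 0 and 12 below, with a median of -0.29 (trend-adjusted -0.21) and 0 past 2-fold. SPRY4, a Sprouty inhibitor of receptor signalling, stood at 20.2 RPKM with wt KAP1, 20.6 with S473A and 11.01 with S473D (-0.85), 1.87-fold higher in S473A (1.75 to 2.0). ETV5 (-0.56), DUSP7 (-0.52, adjusted -0.34), ERRFI1 (-0.48), DUSP4 (-0.48, adjusted -0.23), SPRED2 (-0.48) and SPRED3 (-0.45, adjusted -0.16) were also low. Other MAP kinase phosphatase genes lay above 0, with DUSP6 at 32.8, 30.8 and 42.1 RPKM in wt, S473A and S473D (0.44), DUSP10 at 0.43 and DUSP14 at 0.38 (adjusted 0.14), and DUSP1 (0.07), SPRY2 (0.04) and DUSP5 (-0.01) hardly differed. PHLDA1 (-0.31), ETV4 (-0.29), SPRED1 (-0.20) and SPRY1 (-0.07, adjusted -0.22) made up the rest. Upstream, 5 of 13 EGF receptor family and ligand genes in the table were measured, 1 above 0 and 4 below. The ligand HBEGF stood at 48.7 RPKM with wt KAP1, 49.0 with S473A and 30.1 with S473D (-0.68), EGFR at 59.6, 62.6 and 49.5 (-0.33, adjusted -0.10), ERBB2 at -0.42 (adjusted -0.13), TGFA at -0.06 and NRG1 at 0.14.

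In cytokine signalling the genes lay on both sides of 0. Of 27 NF-kB targets, cytokines and chemokines 10 lay above 0 and 17 below, 1 was 2-fold higher, and the median was -0.19 (trend-adjusted -0.27). Among all genes 39.4% lay above 0 and 60.6% below. The chemokine genes CCL20 (1.94 RPKM with wt KAP1, 1.21 with S473A and 4.01 with S473D, 1.18, adjusted 0.25) and IL8 (60.8, 50.3 and 86.2, 0.77, adjusted 0.14) and the interleukin 1 alpha gene IL1A (10.6, 10.1 and 19.3, 0.88, adjusted 0.52) were higher in S473D, as was the survival gene BCL2A1 (0.94, adjusted 0.22). CCL2, a monocyte chemokine, stood at 7.84 RPKM with wt KAP1, 15.3 with S473A and 8.20 with S473D (-0.82, adjusted -1.67). In the unadjusted CCL2 values the S473A library stood apart and S473D lay near wt. CSF1 (11.1 and 6.76 RPKM, -0.64, adjusted -0.39) was low as well. Of 8 genes of interleukin 4 and 13 signalling, IL13RA2 alone lay above 0, while STAT3 (-0.55, adjusted -0.34), SOCS1 (-0.54), IL4R (-0.50, adjusted -0.29), IL13RA1 (-0.50), STAT6 (-0.28, adjusted -0.06), JAK1 (-0.25, adjusted -0.14) and TYK2 (-0.14, adjusted 0.14) lay below. Of 22 genes of TGF-beta signalling 18 lay below 0 (median -0.17, trend-adjusted -0.18), led by the ligand TGFB1 (18.1 RPKM in S473A and 10.3 in S473D, -0.77) and the effector SMAD3 (50.4 and 30.6, -0.70, adjusted -0.47).

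Interferon-stimulated genes had the highest median of the signalling lists. Of 32 measured, 22 lay above 0 and 10 below, 2 were 2-fold higher, and the median was 0.23 (trend-adjusted 0.04). ISG15, a ubiquitin-like modifier, stood at 32.2 RPKM with wt KAP1, 28.5 with S473A and 70.2 with S473D (1.27, trend-adjusted 0.75; ratio 2.46, 2.22 to 2.74). IFI44 stood at 5.97, 5.09 and 12.5 RPKM (1.15, trend-adjusted 0.68), and the antiviral RNA-binding gene IFIT1 at 2.16, 1.44 and 3.38 (0.85, trend-adjusted 0.82). OAS3 (2.42 RPKM in S473A and 1.26 in S473D, -0.60, adjusted -0.29), DTX3L (-0.42) and the interferon signalling factor STAT2 (-0.30) lay below 0. The promoter of ISG15 is shown for its interferon response element, 250 bases before the annotated start, RefSeq GRCh38.p14, chr1:1013247-1013496 on the plus strand. The element was searched for as GAAA, any 2 bases and GAAA again, and capitals mark a pair of overlapping matches that begin 113 and 107 bases before the start.
ISG15: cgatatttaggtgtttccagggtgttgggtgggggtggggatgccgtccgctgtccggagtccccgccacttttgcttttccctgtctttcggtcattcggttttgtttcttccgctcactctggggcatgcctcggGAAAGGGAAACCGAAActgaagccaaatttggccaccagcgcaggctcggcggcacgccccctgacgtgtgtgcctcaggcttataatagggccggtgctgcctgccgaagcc
A promoter entry was matched to 27 of the 32 genes, and the element was found on either strand in 16 of them (59.3%), against 3.07% of promoters in the table. The median difference, not trend-adjusted, was 0.30 for the genes with the match and 0.10 for those without, a description with no test. A GC box (-0.06 with, 0.35 without) and TATAAA (0.79 in 2 genes, 0.11 without) split the same genes more widely. GGAATG split them less (0.25 and 0.17), and TGANTCA was in 1 gene. The split by the element therefore does not tie it to the difference.

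Ribosomal protein genes were higher in S473D almost throughout. Of the 80 cytosolic ribosomal protein genes 79 lay above 0, 56 were 1.5-fold and 15 were 2-fold higher, and the median was 0.82. Their transcripts are short, with a median of 959.5 bases, and the trend-adjusted median was 0.30 against -0.10 for all genes. Together they made up 13.9% of the summed RPKM in S473A and 20.1% in S473D. RPL9 stood at 466 RPKM with wt KAP1, 491 with S473A and 1264 with S473D (1.36, adjusted 0.55), RPS18 at 1250, 1302 and 2974 (1.19, adjusted 0.54), and RPS27 at 554, 545 and 1197 (1.13, adjusted 0.43). RPS3 stood at 687, 669 and 679 RPKM (0.02, adjusted -0.22), and RPL28 alone lay below 0, at 235, 240 and 215 (-0.16, adjusted 0.10). Pseudogene copies of these genes could have taken or given reads.

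Transcripts of translation genes usually begin with a run of pyrimidines, the 5′ terminal oligopyrimidine motif that couples them to growth signals. The starts of the 5 named genes are shown because they set high against low members of the list. Each line begins 5 bases before the annotated start, RefSeq GRCh38.p14, and capitals mark a run that opens with C and holds at least 5 pyrimidines near the start. They are chr6:33272070-33272099 (plus) for RPS18, chr4:39458898-39458927 (minus) for RPL9, chr1:153990757-153990786 (plus) for RPS27, chr19:55385927-55385956 (plus) for RPL28 and chr11:75399513-75399542 (plus) for RPS3.
RPL9: acgacagacgttctttctttgctgcgtcta
RPS18: ccgCTCTCTCTTCCacaggaggcctacacg
RPS27: tcgCTCCTTTCCggcggtgacgacctacgc
RPS3: caCTTCCTTTCCTTTCagcggagcgcggcg
RPL28: CCTTCCTCTTTCCgtctcaggtcgccgctg
The run was present in RPS3 and RPL28, the lowest members. The search reached from 5 bases before the start to 10 after it, and in RPL9, the highest member, it found none, although a pyrimidine run in the printed line crosses the end of that window. Of the 64 ribosomal protein genes with a promoter entry 52 had the run (81.2%), against 21.1% of the starts in the table. The median difference, not trend-adjusted, was 0.82 with it and 0.63 without, a description with no test. A GC box (0.68 with, 0.88 without) split the same genes about as widely, and TATAAA (0.26 in 5 genes, 0.83 without) more. The interferon response element, in 3 genes, split them less (0.84 and 0.79).

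The nuclear genes of mitochondrial respiration and translation lay on the same side. Of 81 oxidative phosphorylation genes 74 lay above 0 and 7 below, 46 were 1.5-fold and 10 were 2-fold higher, and the median was 0.66 (trend-adjusted 0.22). COX7B, a cytochrome c oxidase subunit, stood at 103 RPKM with wt KAP1, 101 with S473A and 257 with S473D, NDUFA4 at 36.6, 37.8 and 92.1 (1.26, trend-adjusted 0.92), and COX6A1 at 283, 279 and 644 (1.20, adjusted 0.55). The lowest were the ATP synthase subunit ATP5D (48.1 and 33.1 RPKM, -0.53) and the complex II subunit SDHA (61.0 and 47.2, -0.36). Of 75 mitochondrial ribosomal protein genes 70 lay above 0 and 2 were 2-fold higher (median 0.51, trend-adjusted 0.12). MRPS23 (34.3 and 74.3 RPKM, 1.10) and MRPL13 (41.9 and 89.3, 1.07, adjusted 0.43) led them, and MRPS25 (-0.57) was the lowest. Of 30 genes of protein import into mitochondria 24 lay above 0 and 1, TOMM7 (63.7 and 150 RPKM, 1.22, adjusted 0.48), was 2-fold higher (median 0.38, trend-adjusted 0.10). In this list the small translocase subunits TOMM6 (0.996, adjusted 0.29) and TOMM5 (0.94, adjusted 0.27) were high and the channel gene TOMM40 (-0.36) low. The 35 SLC25 carrier genes had a median of -0.08, with 16 above 0.

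Proteasome genes and hosts of small nucleolar RNAs lay mostly above 0, while translation factors and splicing genes were spread around it. Of 48 proteasome genes 39 lay above 0, and PSMA3 (81.0 RPKM in S473A and 183 in S473D, 1.16, adjusted 0.43) and PSMA2 (80.5 and 172, 1.09, adjusted 0.57) were 2-fold higher (median 0.38, trend-adjusted 0.19). PSMD3 (-0.50) and PSME3 (-0.49) were the lowest. Of 18 snoRNA host and nuclear noncoding genes 14 lay above 0, and GAS5 (75.2 and 155 RPKM) and SNHG8 (57.0 and 118) were both at 1.03 (adjusted 0.37 and 0.36), while the long NEAT1 transcript of paraspeckles stood at 96.0, 90.3 and 51.8 (-0.79, trend-adjusted -0.64). Translation factors, with a median transcript length of 2858 bases, had a median of -0.00 (trend-adjusted -0.12) over 37 genes, with 18 above 0. EIF6 (313 and 575 RPKM, 0.88) was at one end and the scaffold EIF4G1 (165 and 92.0, -0.84, adjusted -0.51) at the other. Of 42 snRNP and SR protein genes 26 lay above 0 and 3 were 2-fold higher (median 0.12, trend-adjusted -0.04), with the small subunit SNRPG (1.03, adjusted 0.35) high and the large SF3B3 (-0.65, adjusted -0.39) low.

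**Figure D5:**
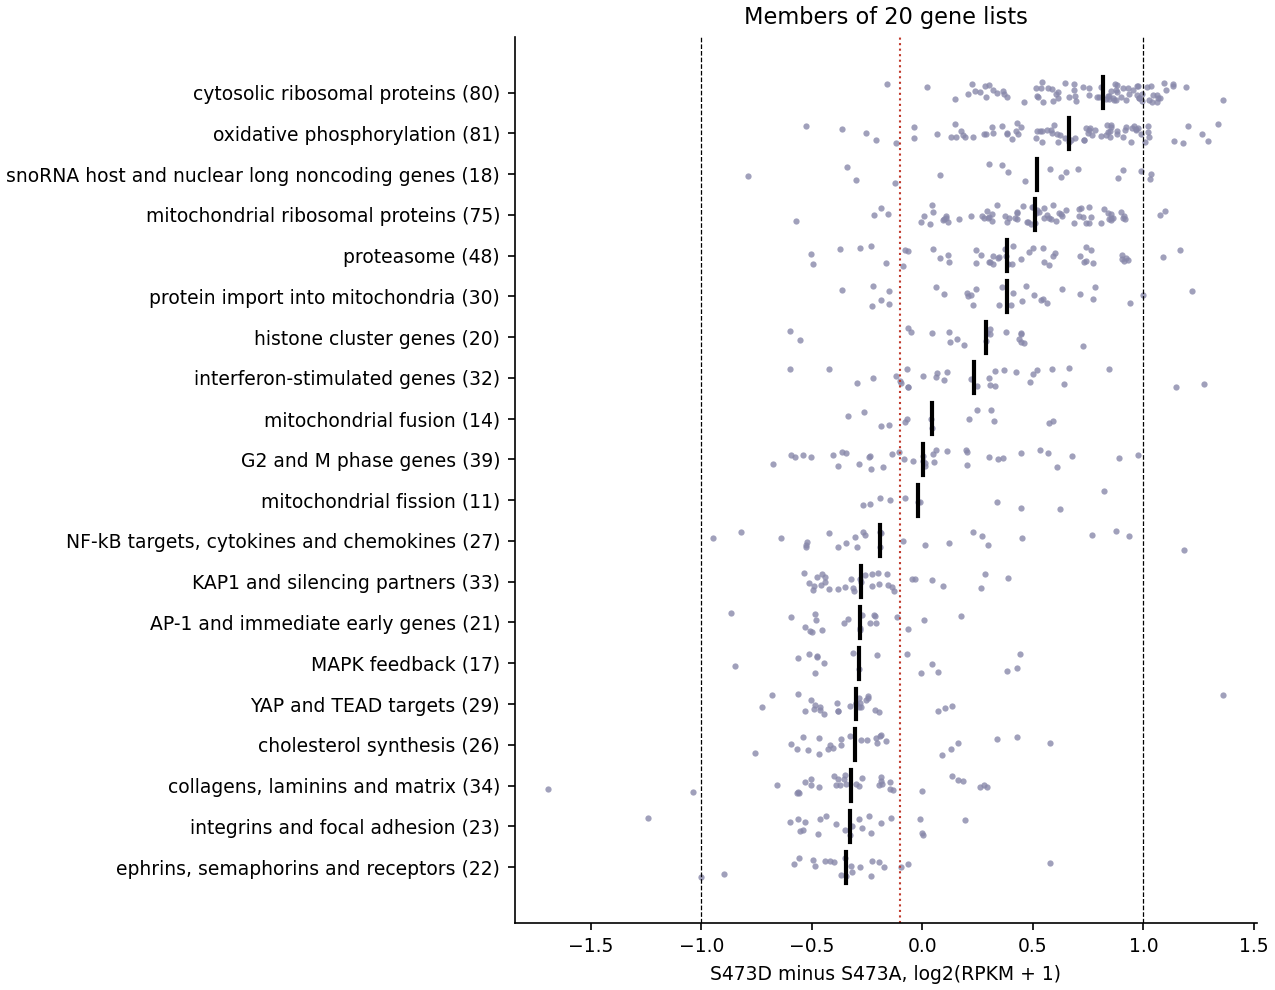
Members of 20 gene lists by their difference S473D minus S473A on the log2(RPKM + 1) scale, with the number measured in brackets. Each point is 1 gene, black bars are list medians, the dotted red line is the median of all genes (-0.10) and dashed lines mark 2-fold. Ribosomal protein (0.82) and oxidative phosphorylation genes (0.66) have the highest medians of the lists plotted, and matrix, adhesion and ephrin lists the lowest. Of the lists not plotted, fatty acid synthesis (-0.38) and interleukin 4 and 13 receptors (-0.39) have lower medians than all of these. EGF receptors and ligands, also not plotted, have a median of -0.333, below the adhesion (-0.325) and matrix (-0.323) lists.

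Cell cycle lists were centred near 0 with wide spreads. Of 40 S phase genes 17 lay above 0 and 1 was 2-fold higher, RPA3 (14.2 RPKM in S473A and 30.3 in S473D, 1.05), a subunit of replication protein A, with a median of -0.02. The cyclin gene CCNE1 (8.12 and 5.37, -0.52) was the lowest. Of 39 G2 and M phase genes 21 lay above 0, with a median of 0.00 (trend-adjusted -0.19). The short CKS2 (131 and 259 RPKM, 0.98, adjusted 0.08) and CDK1 (71.9 and 134, 0.89, adjusted 0.37) stood at one end, and MKI67 (54.4 and 33.7, -0.68, adjusted -0.42) and PLK1 (70.1 and 46.0, -0.60) at the other. Of 33 DNA repair genes 24 lay below 0 (median -0.19, trend-adjusted -0.15), with XRCC4 at 0.57 (adjusted 0.03) and FANCD2 at -0.62. Of 18 p53 targets 7 lay above 0 (median -0.08, trend-adjusted -0.12), where 39.4% of all genes did. The cell cycle inhibitor CDKN1A stood at 34.1 and 32.0 RPKM (-0.09), and XPC (-0.69) was the lowest.

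Lipid synthesis genes were mostly below 0. Of 26 cholesterol synthesis genes 20 lay below (median -0.30, trend-adjusted -0.27), among them the regulator SREBF1 (12.7 RPKM in S473A and 8.08 in S473D, -0.60, adjusted -0.29), while IDI1 lay at 0.58. Of 13 fatty acid synthesis genes 12 lay below 0 (median -0.38, trend-adjusted -0.23), the exception being ELOVL1 (0.54). In glycolysis, 8 of 20 genes lay above 0 (median -0.05, trend-adjusted -0.005), where 39.4% of all genes did. PGK1 (183 and 317 RPKM, 0.79, trend-adjusted 0.82) and GAPDH (0.68, trend-adjusted 0.62) were high and the regulator PFKFB3 (-0.59, adjusted -0.35) low. Of 28 hypoxia genes 11 lay above 0 (median -0.11, trend-adjusted -0.12), against 39.4% of all genes. The mitophagy receptor BNIP3 (69.8 and 118 RPKM, 0.75) and the growth factor VEGFA (59.1 and 39.2, -0.58) were on opposite sides. Of 30 ATF4 and unfolded protein response genes 11 lay above 0 (median -0.11, trend-adjusted -0.15), again against 39.4% of all genes. ATF4 itself (187 and 261 RPKM, 0.48) and DDIT3 (0.76, adjusted 0.29) were higher while the ATF4 target SLC7A5 was lower. Thioredoxin, TXN (197 and 431 RPKM, 1.12, trend-adjusted 0.39), was the only 2-fold gene of 20 NRF2 targets (median -0.07). The 7 measured epithelial genes were split, with 4 above 0 and 3 below (median 0.15, trend-adjusted 0.03). The keratin KRT19 stood at 11.1 RPKM with wt KAP1, 9.45 with S473A and 21.5 with S473D (1.11, trend-adjusted 0.94), with a ratio of 2.28 (2.01 to 2.58). KRT8 stood at 126 in S473A and 178 in S473D (0.50). DSP (-0.48, adjusted -0.23), MUC1 (-0.25, adjusted -0.33) and JUP (-0.18, adjusted 0.03) lay below 0. MT2A, the main metallothionein, stood at 913 and 946 RPKM (0.05, adjusted -0.41), short of the 1.5-fold set for naming it, as was IL24 (44.8 and 54.1, 0.27, adjusted 0.03).

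The wt library lay nearer to S473A than to S473D in all 15 of the highest and all 15 of the lowest genes named by size. Its value lay between the substitutions in 12 of the highest and 6 of the lowest. With steps of at least 1.4-fold from S473A to wt and again from wt to S473D, 2 of 8064 genes averaging 5 RPKM or more (LOC and readthrough symbols left out) qualified, MMP1 and SPANXA1, and 0 stepped down in that order. All 3 values rest on 1 library each, so a departure of the S473D library as a whole and an effect of the aspartate cannot be told apart. By chromosome the median difference ran from -0.21 on chromosome 16 to -0.02 on chromosome 12. With the length and GC trends removed the order changed, from -0.19 on chromosome 13 to -0.03 on chromosome 22, with chromosome 16 at -0.12.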

How the data were processed

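RNA of 3 libraries of MDA-MB-231 cells, 1 for each form of KAP1, was compared, each placed by its title. Total RNA was extracted with TRIzol and libraries were made by Illumina protocols, per the labels' protocols. Bowtie, Partek and build hg19 are named for the read processing, per the submitters' processing notes. Versions, annotation, strand handling and counting rule were not given in the sources used here. Values in the table are log2 of RPKM as deposited by the authors. The lowest deposited value, -3.32, is the log2 of 0.1, so RPKM was recovered as 2 to the power of the value minus 0.1. This reading is inferred from the values.

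Of 19076 lines, 27 were left out because their symbols had become dates. Differences of log2(RPKM + 1) were taken where the mean reached 1 RPKM, 177 short RNAs set aside. With 1 library per group no test exists, and genes were counted by size (2-fold and 1.5-fold). Depth was estimated from 1-read steps of low RPKM values times GENCODE release 29 transcript lengths, and from 47.4% to 49.1% of low values were whole reads within 2%. Reads per gene are thus estimates, and count models were not used. Exact (Clopper-Pearson) 95% intervals of RPKM ratios follow from them. Lowess trends (fraction 0.2, 2 rounds) on the length and GC content of 1 transcript per gene, the longest RefSeq-listed one where there was one, were removed as an alternative. For RPL37A and others that transcript is far longer than the usual one, and the adjustment is then too small. Other alternatives were pseudocounts of 0.1 and 0.5, no filter, a minimum mean of 5 RPKM, median centring, trimmed mean scaling (30% of ratios and 5% of levels trimmed), short RNAs kept and 1.5-fold.

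The genes named are TRIM28 and the mitochondrial fusion and fission genes, the 15 highest and 15 lowest differences with a mean of at least 5 RPKM (no short RNAs, LOC or readthrough symbols), up to 4 members at each end of a list, any measured member of 5 signalling and protease lists, genes stepping in order by 1.4-fold, and ANKRD1, ISG15, IL24 and MT2A. Others are named with the reason, and some genes that the rule names are left out. The members and the 47 gene lists were chosen with earlier results of these data known. Promoters came from RefSeq, and 79.9% of the compared genes had an entry, too few for shares over all of them. Calculations used Python 3.11.15, numpy 2.4.6, pandas 2.3.3, scipy 1.17.1, statsmodels 0.14.6 and matplotlib 3.10.9. The counting and depth steps were tested on simulated data, and the trend removal was not part of that test.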

Additional observations from a re-analysis of the deposited data

How the results depend on the processing

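Each group has 1 library, so no replicate could be left out, and the named genes rest on single values. No paired analysis was possible because each group has 1 library and no replicate numbers are shared. The count of genes 2-fold lower in S473D, 13, was 52 with a pseudocount of 0.1, 26 with 0.5, 24 with short RNAs kept, 5 at a minimum mean of 5 RPKM and 46 with length and GC trends removed. The count higher, 117, was 21 with the trends removed, so that the split turned from 117 higher and 13 lower to 21 and 46. Centring on the median gave 211 higher and 7 lower, and trimmed mean scaling 220 and 7. The trimmed mean factor of S473D over S473A was -0.11 on the log2 scale, and dividing it out raises the differences. At 1.5-fold the counts were 798 and 345, which the lower threshold makes larger by construction. Some other shifts follow by construction too. Keeping the short RNAs adds their own 14 higher and 11 lower lines. Centring and trimmed mean scaling move the differences up together, in the counts and in the medians below. A smaller pseudocount makes the differences of low genes larger, and a higher minimum mean can only take genes out of the counts. For the remaining shifts in the counts and in the medians below, the cause was not tested.

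With the trends removed the list medians were 0.30 for ribosomal proteins, 0.22 for oxidative phosphorylation, 0.12 for mitochondrial ribosomal proteins, 0.042 for interferon-stimulated genes, -0.038 for matrix genes and -0.13 for KAP1 partners. Trimmed mean scaling gave -0.18 for MAPK feedback, -0.21 for matrix genes, -0.17 for KAP1 partners, 0.15 for fusion and 0.085 for fission, which was -0.02 before. Without the filter on low values the medians were 0.059 for interferon-stimulated and -0.19 for matrix genes. A list median was taken to have moved where it changed by more than 0.1 and more than 1.5 times. All 30 genes named by size kept their direction under the 7 other alternatives and stayed within 1.5-fold of their value. With the trends removed 22 stayed within it and 7 did not (SPANXA1, SPANXA2, LINC00493, RPL9, COX7B, COX7A2 and CKLF), and SPANXE had no matched transcript. Depth limits low genes most, so MMP9, CCL20 and IFIT1 are known less exactly than MMP1.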
